A study of Homo sapiens with 4 samples.

Results

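Integrins are receptors that join cells to the matrix around them, and the genes described here encode 10 integrin subunits that build receptors for collagen, laminin, fibronectin and ligands with an RGD motif. They were taken as the rows of the count table whose Ensembl gene identifier maps to ITGA1, ITGA2, ITGA3, ITGA5, ITGAV, ITGB1, ITGB3, ITGB5, ITGB6 and ITGB8, which found 10 of 10 among 58735 genes. RNA was sequenced from 2 triple-negative breast cancer cell lines, MDA-MB-231 and SUM159. Each line was exposed for 72 h to 1 uM mebendazole (MBZ), an anthelmintic that binds tubulin, or to the DMSO vehicle, with 1 library for each of the 4 groups. Total counts were 24897586 in MDA-MB-231 with DMSO, 17143139 in MDA-MB-231 with MBZ, 18708179 in SUM159 with DMSO and 18904501 in SUM159 with MBZ.

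An integrin is a pair of an alpha and a beta chain that span the membrane, and the pairing sets which matrix protein is bound. The beta1 chain pairs with every alpha chain described here, whereas beta3, beta5, beta6 and beta8 share the alphaV chain. In breast tumour cells these receptors carry attachment and migration, and alphaV receptors also release TGF-beta from its latent complex.

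A difference between a pair of libraries has no replicate check, and no p-value is given for it. The intervals given (95%, Clopper-Pearson) come from how a gene's reads divide between the libraries of a pair. They cover counting error only: reads amplified by PCR and lacking molecular identifiers do not each stand for a separate molecule. Libraries were scaled by TMM, which takes a trimmed mean of the log ratios of genes between libraries. A gene was called higher or lower when it differed by at least 1.5-fold and averaged 10 counts or more in the pair. Of the members, 9 of 10 met the count minimum in both lines, and ITGB6 did not. With MBZ in MDA-MB-231, 2 members were higher and 3 lower, against 18.3% and 15.8% of all genes compared. In SUM159, 2 were higher and 3 lower, against 21.5% and 21.7%. Over the members the median log2 value was -0.020 in MDA-MB-231, where the median of all genes was -0.018, and 0.049 in SUM159, where it was -0.034. Scaling by total counts moves the median of all genes to 0.25 and 0.27, so the changes given are relative to the bulk of genes. With that scaling 29.1% of genes were called higher and 7.57% lower in MDA-MB-231, and 32.8% and 12.8% in SUM159. Of the 9, 1 member was lower in both lines, where 4.71% of genes were, 0 were higher in both, where 6.12% were, and 3 were called in opposite directions, where 6.04% were. These counts depend on the scaling. With total counts, 1 member (ITGB3) was called in opposite directions, where 4.83% of genes were, and 0 were lower in both lines, where 1.61% were. With DESeq2 size factors 2 (ITGB3 and ITGB8) were called in opposite directions, where 6.06% were. At a fold of 2 none was called in both lines, where 1.7% of genes were called in opposite directions, 1.09% lower in both and 2.48% higher in both.

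**Figure D1:**
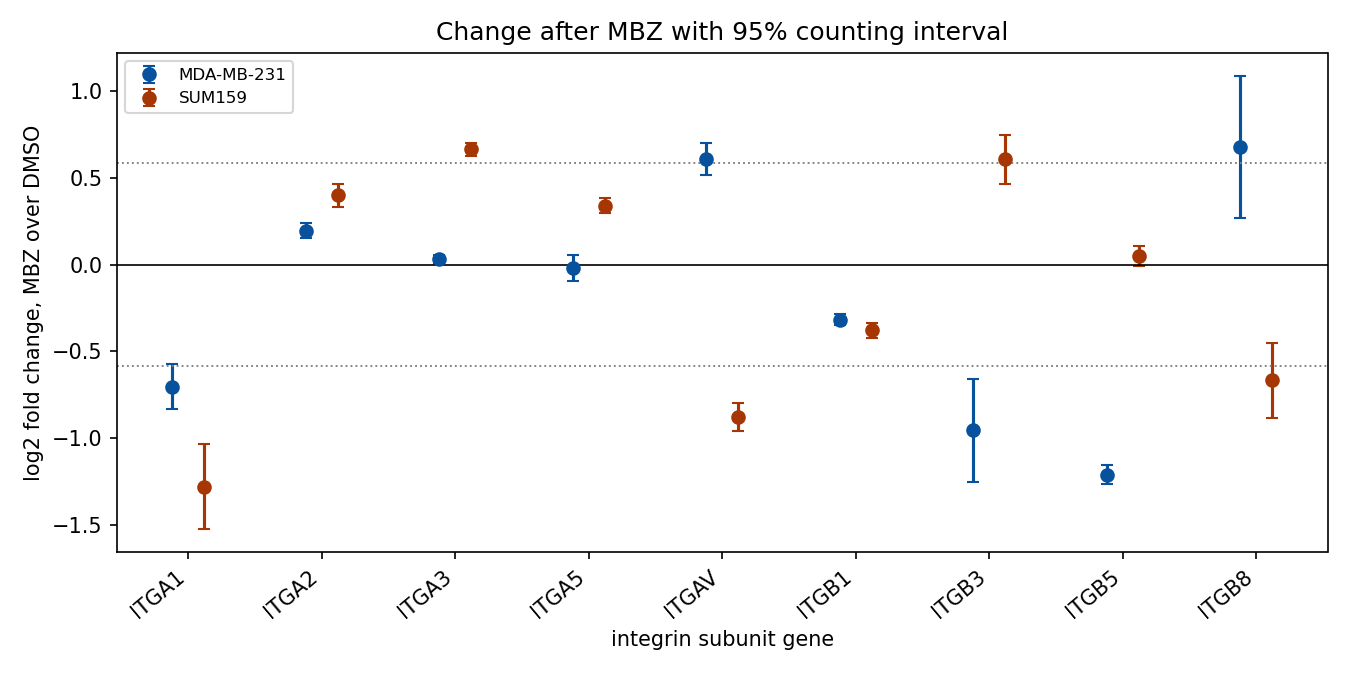
Log2 fold change with MBZ over DMSO (y axis) for the 9 compared subunits (x axis), with 1 point per cell line; bars are 95% counting intervals and dotted lines mark a 1.5-fold difference. ITGA1 lies below 0 in both lines, while ITGAV, ITGB3 and ITGB8 lie on opposite sides of 0.

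ITGA1 and ITGA2 encode the alpha chains of collagen receptors and lie next to each other on chromosome 5. They are 30.1 kb apart, with 0 annotated genes lying wholly within that gap. Genes reaching into the gap from either side were not counted. ITGA1 had 1474 counts in MDA-MB-231 with DMSO, 750 in MDA-MB-231 with MBZ, 411 in SUM159 with DMSO and 211 in SUM159 with MBZ. It was low in SUM159 and in both lines lower with MBZ. MBZ over DMSO gave a log2 value of -0.70 (95% counting interval -0.83 to -0.57) in MDA-MB-231 and -1.28 (95% counting interval -1.52 to -1.03) in SUM159. With scaling by total counts the MDA-MB-231 value was -0.44, under 1.5-fold. ITGA2 had 9072 counts in MDA-MB-231 with DMSO, 8599 in MDA-MB-231 with MBZ, 3002 in SUM159 with DMSO and 4925 in SUM159 with MBZ. Its level per length was above that of ITGA1 in every library, and it was somewhat higher with MBZ in both lines. The log2 difference was 0.20 (95% counting interval 0.15 to 0.24) in MDA-MB-231 and 0.40 (95% counting interval 0.33 to 0.46) in SUM159, each within 1.5-fold. With total counts these became 0.46 and 0.70, the latter past 1.5-fold. The neighbouring genes thus had changes of opposite sign in each line. On the same strand, ITGA1 shares 3.08% of its exonic bases with the pseudogene RPL17P21 and 2.69% with PELO, and reads there cannot be assigned to either gene of a pair. On the other strand it shares 7.47% with ITGA2-AS1 and 0.588% with PELO-AS1, and whether counting used strand, which would separate these, is not given.

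ITGA3 encodes the alpha chain of a receptor that binds mainly laminin. It had 27407 counts in MDA-MB-231 with DMSO, 23160 in MDA-MB-231 with MBZ, 8837 in SUM159 with DMSO and 17419 in SUM159 with MBZ. Counts were high in all 4 libraries, and in SUM159 higher with MBZ than with DMSO. On the log2 scale MBZ over DMSO was 0.030 (95% counting interval 0.0043 to 0.055) in MDA-MB-231 and 0.66 (95% counting interval 0.63 to 0.70) in SUM159. It was within 1.5-fold in the former line and past it in the latter. The small MDA-MB-231 value depends on the scaling, being -0.020 with DESeq2 size factors and 0.30 with total counts. ITGA5 encodes the alpha chain of the main fibronectin receptor. It had 3285 counts in MDA-MB-231 with DMSO, 2682 in MDA-MB-231 with MBZ, 6986 in SUM159 with DMSO and 11000 in SUM159 with MBZ. Its counts were higher in SUM159 than in MDA-MB-231, and highest in SUM159 with MBZ. MBZ over DMSO was -0.020 (95% counting interval -0.094 to 0.054) (log2) in MDA-MB-231, an interval that includes 0, and 0.34 (95% counting interval 0.30 to 0.38) in SUM159. Scaling by total counts turned the small MDA-MB-231 value to 0.25 and raised that of SUM159 to 0.64, past 1.5-fold.

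ITGAV encodes the alpha chain shared by the RGD receptors. It had 1759 counts in MDA-MB-231 with DMSO, 2217 in MDA-MB-231 with MBZ, 2931 in SUM159 with DMSO and 1986 in SUM159 with MBZ. Counts were higher with MBZ in MDA-MB-231 and lower with MBZ in SUM159. Its log2 change was 0.61 (95% counting interval 0.52 to 0.70) in MDA-MB-231, an interval that extends under 1.5-fold, and -0.88 (95% counting interval -0.96 to -0.80) in SUM159. The MDA-MB-231 call was lost with DESeq2 size factors (0.56) and the SUM159 call with total counts (-0.58), the sign being kept. ITGB8 encodes a beta chain that pairs with alphaV alone and binds latent TGF-beta. It had 90 counts in MDA-MB-231 with DMSO, 119 in MDA-MB-231 with MBZ, 404 in SUM159 with DMSO and 317 in SUM159 with MBZ. It was scarce in MDA-MB-231 and followed the directions of ITGAV. For it the log2 value was 0.67 (95% counting interval 0.27 to 1.09) in MDA-MB-231 and -0.67 (95% counting interval -0.88 to -0.45) in SUM159, and both intervals extend under 1.5-fold. With total counts the SUM159 value was -0.36, under 1.5-fold. Relative to ITGB1 reads, which does not depend on library scaling, ITGB8 differed between MBZ and DMSO by a log2 ratio of 0.99 (95% exact interval 0.58 to 1.41) in MDA-MB-231 and -0.29 (95% exact interval -0.51 to -0.068) in SUM159, and neither interval includes 0. Relative to ITGAV reads, a reference chosen after seeing that the genes had like changes, it differed by 0.069 (95% exact interval -0.35 to 0.49) and 0.21 (95% exact interval -0.021 to 0.44). Both of these intervals include 0, so a change of that ratio was not detectable at this depth.

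Promoter sequences are shown for ITGAV and ITGB8, which had changes of the same sign in each line, and for ITGA1, which was lower in both lines. RefSeq entries on GRCh38.p14, from 250 bases before to 50 after a gene's start, were found for 8 of the 10 members. The promoter set used here held none for ITGA3 and ITGB3, although both genes have an annotated start. The windows were searched on both strands for 4 motifs, and capitals mark the matches. The letters of the GC box were GGGCGG. For the AP-1 site the letters searched were TGANTCA. For the TATA box they were TATAAA, and for the box named after its own letters they were CCAAT. No motif contained or overlapped another in the matches shown. Over 35116 promoters of 300 bases, 45.0% held the GC box, 7.71% the AP-1 letters, 11.5% the TATA letters and 34.6% CCAAT. ITGB8 (chr7:20330650-20330949, plus strand) held 2 GC boxes and 1 CCAAT. ITGAV (chr2:186589806-186590105, plus strand) and ITGA1 (chr5:52787666-52787965, plus strand) held none of the 4 motifs and so carry no capitals. ITGAV has another entry (chr2:186599955-186600254), also with none of the motifs, and the one shown spans the start of the canonical transcript. A match or its absence describes the letters in this window only.
ITGAV: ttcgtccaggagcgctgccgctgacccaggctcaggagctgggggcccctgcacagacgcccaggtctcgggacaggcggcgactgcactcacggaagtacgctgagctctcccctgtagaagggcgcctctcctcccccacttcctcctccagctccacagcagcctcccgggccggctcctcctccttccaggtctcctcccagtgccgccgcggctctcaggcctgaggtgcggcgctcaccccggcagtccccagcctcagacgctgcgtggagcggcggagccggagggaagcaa
ITGB8: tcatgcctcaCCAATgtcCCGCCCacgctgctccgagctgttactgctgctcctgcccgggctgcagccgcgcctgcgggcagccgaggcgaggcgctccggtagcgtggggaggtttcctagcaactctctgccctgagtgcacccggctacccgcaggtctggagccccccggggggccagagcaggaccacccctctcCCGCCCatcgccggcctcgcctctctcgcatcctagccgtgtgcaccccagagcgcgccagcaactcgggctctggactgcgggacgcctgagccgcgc
ITGA1: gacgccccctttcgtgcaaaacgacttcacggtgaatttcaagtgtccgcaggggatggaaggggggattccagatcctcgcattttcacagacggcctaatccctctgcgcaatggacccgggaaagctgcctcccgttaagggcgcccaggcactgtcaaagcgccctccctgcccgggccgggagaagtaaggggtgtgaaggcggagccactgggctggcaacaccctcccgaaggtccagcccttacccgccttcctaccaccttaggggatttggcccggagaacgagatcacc

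ITGB1 encodes the beta chain common to the collagen, laminin and fibronectin receptors. It had 21603 counts in MDA-MB-231 with DMSO, 14352 in MDA-MB-231 with MBZ, 8904 in SUM159 with DMSO and 8531 in SUM159 with MBZ. Counts were high in every library. The log2 change with MBZ was -0.32 (95% counting interval -0.35 to -0.29) in MDA-MB-231 and -0.38 (95% counting interval -0.42 to -0.34) in SUM159, within 1.5-fold in each. With total counts it was -0.052 and -0.077, so most of this decrease depends on the scaling. Relative to ITGB1 reads, a comparison free of library scaling, ITGA3 differed between MBZ and DMSO by a log2 ratio of 0.35 (95% exact interval 0.31 to 0.39) in MDA-MB-231 and 1.04 (95% exact interval 0.98 to 1.10) in SUM159. ITGA1 differed by -0.38 (95% exact interval -0.52 to -0.25) and -0.90 (95% exact interval -1.15 to -0.65). ITGA2 differed by 0.51 (95% exact interval 0.46 to 0.57) and 0.78 (95% exact interval 0.70 to 0.85). For ITGA5 the values were 0.30 (95% exact interval 0.22 to 0.38) and 0.72 (95% exact interval 0.66 to 0.78). ITGAV differed by 0.92 (95% exact interval 0.83 to 1.02) and -0.50 (95% exact interval -0.59 to -0.41). The balance against ITGB1 was thus higher for ITGA2, ITGA3 and ITGA5 and lower for ITGA1 in both lines. For ITGAV it was higher in MDA-MB-231 and lower in SUM159.

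ITGB5 encodes a beta chain of the vitronectin receptor. It had 10466 counts in MDA-MB-231 with DMSO, 3749 in MDA-MB-231 with MBZ, 4240 in SUM159 with DMSO and 5462 in SUM159 with MBZ. Counts were much lower with MBZ in MDA-MB-231 and were somewhat higher in SUM159. Scaled by TMM, MBZ over DMSO was -1.21 (95% counting interval -1.26 to -1.16) (log2) in MDA-MB-231 and 0.049 (95% counting interval -0.0091 to 0.11) in SUM159, an interval that includes 0. With total counts the SUM159 value was 0.35. ITGB3 encodes a beta chain that pairs with alphaV in many cells and with ITGA2B in platelets. It had 318 counts in MDA-MB-231 with DMSO, 136 in MDA-MB-231 with MBZ, 619 in SUM159 with DMSO and 1172 in SUM159 with MBZ. It was lowest in MDA-MB-231 with MBZ and highest in SUM159 with MBZ. This gave log2 values of -0.95 (95% counting interval -1.25 to -0.66) in MDA-MB-231 and 0.60 (95% counting interval 0.46 to 0.75) in SUM159, the latter interval extending under 1.5-fold. ITGB3 shares 33.2% of its exonic bases with a same-strand protein-coding gene that had at most 1 count in a library, and reads in shared bases may not have been counted. ITGB6, a beta chain of epithelial cells that pairs with alphaV, had 3 counts in MDA-MB-231 with DMSO, 5 in MDA-MB-231 with MBZ, 1 in SUM159 with DMSO and 7 in SUM159 with MBZ. These counts are too few to compare, and 2 of the 4 are at or under 3 counts.

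The difference of response, SUM159 minus MDA-MB-231 on the log2 scale, was -1.48 (95% counting interval -1.61 to -1.36) for ITGAV, 1.56 (95% counting interval 1.23 to 1.89) for ITGB3 and -1.34 (95% counting interval -1.81 to -0.88) for ITGB8. It was 1.26 (95% counting interval 1.18 to 1.34) for ITGB5 and 0.63 (95% counting interval 0.59 to 0.68) for ITGA3. For ITGB1 it was -0.061 (95% counting interval -0.11 to -0.0077). This small value depends on the scaling: with DESeq2 size factors ITGB1 changed by -0.367 in MDA-MB-231 and -0.366 in SUM159. The differences of response were not tested, since 4 libraries leave no residual degrees of freedom for them. A change shared by the lines was tested in edgeR (quasi-likelihood, p-values adjusted after Benjamini and Hochberg), the lines standing in for replicates. It called 0 of 9 members, and 1 of 16100 genes, or 0.00621%. Without adjustment, 629 genes with a rise and 521 with a fall had p under 0.05, and 1 member, ITGA1, was among the latter. In the edgeR quasi-likelihood test, adjusted by Benjamini-Hochberg, ITGA1 had a shared log2 fold change -0.95 (SE 0.31, adjusted p = 0.609). DESeq2's Wald test, run on 32295 genes of which 17375 had no adjusted p-value, called 100 genes and 0 members.

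In the DMSO libraries, 4 members were higher in SUM159 and 5 lower than in MDA-MB-231, against 30.5% and 31.1% of genes. ITGB8 had the largest log2 ratio, 2.64 (95% counting interval 2.31 to 2.98), followed by ITGA5 at 1.56 (95% counting interval 1.501 to 1.62) and ITGB3 at 1.43 (95% counting interval 1.24 to 1.63). ITGA1 was lowest at -1.37 (95% counting interval -1.53 to -1.21). The lines thus started from different subunit levels. All 9 compared members were past 1.5-fold in this comparison, which sets 1 library against another.

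Levels between genes were compared per length, as CPM (counts scaled to library size) per kb of the union of annotated exons. ITGA3 had 120 and 124 CPM per kb in MDA-MB-231 and 54.4 and 86.2 in SUM159, with DMSO before MBZ. ITGB5 had 69.1 and 30.3 CPM per kb in MDA-MB-231 and 39.3 and 40.6 in SUM159, and ITGB1 63.8 and 51.9 CPM per kb in MDA-MB-231 and 36.9 and 28.4 in SUM159. ITGA3 was thus the most abundant alpha chain in MDA-MB-231, while in SUM159 with DMSO ITGA5 (57.1 CPM per kb) stood slightly above ITGA3. At the low end, ITGB6 was lowest in each library, with at most 0.0587 CPM per kb. ITGB8 had 0.256 and 0.413 CPM per kb in MDA-MB-231 and 1.61 and 1.01 in SUM159. ITGA1 had 3.42 and 2.13 CPM per kb in MDA-MB-231 and 1.34 and 0.552 in SUM159. ITGB3 was below ITGA1 in MDA-MB-231 (2.003 and 1.048 CPM per kb) but not in SUM159 (5.47 and 8.32). The ITGB3 level divides by its full exonic length, of which 33.2% is shared with another gene. Reads left uncounted there would make the level and share of ITGB3 too low.

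**Figure D2:**
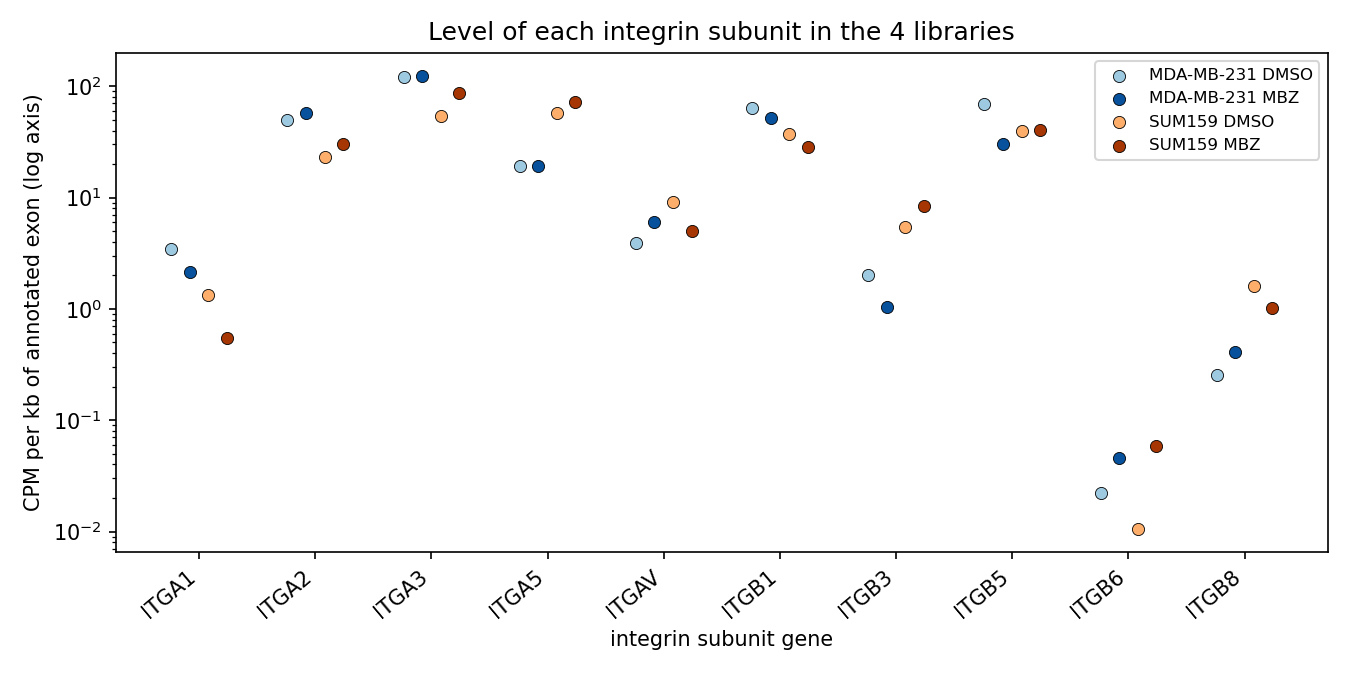
Level of each subunit gene (x axis) as CPM per kb of annotated exon on a log y axis, with 1 point per library. ITGA3, ITGB1, ITGB5 and ITGA2 are high in all 4 libraries, and ITGB6 is lowest in each.

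As shares of the summed per-length level of the 5 beta chains, ITGB5 made up 51.1% (DMSO) and 36.2% (MBZ) in MDA-MB-231 and 47.2% and 51.8% in SUM159. ITGB1 made up 47.2% (DMSO) and 62.0% (MBZ) in MDA-MB-231 and 44.3% and 36.2% in SUM159. On this length the ITGB1 share was higher with MBZ in MDA-MB-231 and lower with MBZ in SUM159. The ITGB1 level itself was lower with MBZ in MDA-MB-231, and its share was higher as the ITGB5 level fell further. Which of these chains leads depends on the length used, because the union of exons of ITGB1 (14561 bases) is much longer than its longest transcript (5614 bases). With the longest transcript as length, ITGB1 made up 61.4% (DMSO) and 74.4% (MBZ) in MDA-MB-231 and 59.0% and 50.9% in SUM159, and led in every library. The direction with MBZ was the same on both lengths. Among the 5 alpha chains ITGA3 made up 61.3% (DMSO) and 59.5% (MBZ) in MDA-MB-231 and 37.5% and 44.4% in SUM159. ITGAV made up 1.995% (DMSO) and 2.89% (MBZ) in MDA-MB-231 and 6.31% and 2.56% in SUM159. In SUM159 with DMSO ITGA5 led ITGA3 on the union of exons, at 39.4%, but not on the longest transcript, at 36.8% against 42.4%.

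**Figure D3:**
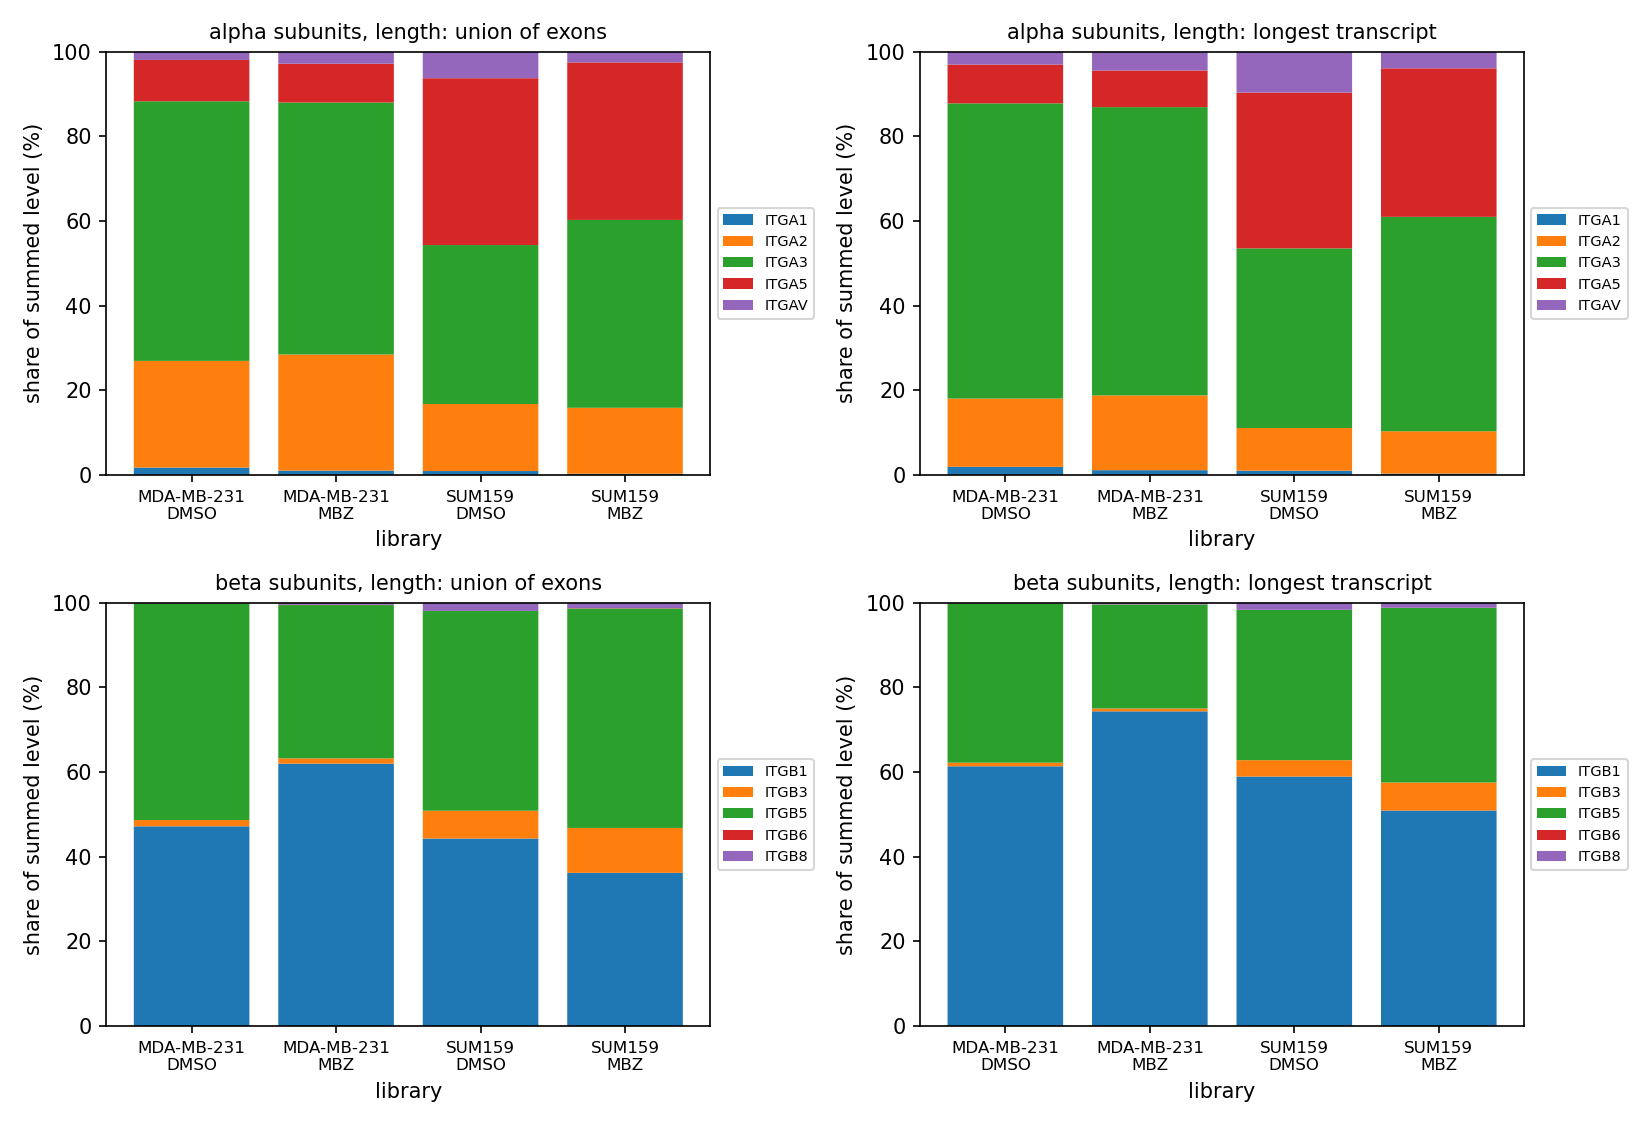
Share in percent (y axis) of each subunit in the summed per-length level of the 5 alpha (top) or 5 beta (bottom) chains, stacked for each of the 4 libraries (x axis), with the union of exons (left) or longest transcript (right) as length. ITGB1 leads the beta chains in every library on the right, but only in MDA-MB-231 with MBZ on the left.

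Of 27 extracellular ligands of these receptors, 4 were higher and 5 lower of 22 compared in MDA-MB-231 (median log2 fold change -0.21), and 4 and 17 of 25 in SUM159 (median -1.16). The summed level of 4 genes listed as fibroblast markers was also lower with MBZ in the SUM159 line (217 and 53.5 CPM). PDGFRA and PDGFRB were lower, but DCN (335 and 508 counts) and LUM (0 and 8) were not. The part of this sum in the ligand counts was not tested. The share of all genes called higher was 18.3% in MDA-MB-231 and 21.5% in SUM159, and the share called lower 15.8% and 21.7%. Fibronectin, the ligand of the ITGA5 receptor, had 24016 counts (DMSO) and 9078 (MBZ) in MDA-MB-231 and 98237 and 16694 in SUM159. It was lower with MBZ in each line, by log2 values of -1.13 and -2.87, whereas ITGA5 was not. Of 26 activation and adhesion adaptors inside the cell, 1 was higher and 10 lower of 26 compared in MDA-MB-231 (median log2 fold change -0.33), and 2 and 4 of 25 in SUM159 (median -0.25). The alpha-actinin ACTN1, which links integrin tails to actin, differed on the log2 scale by -1.01 in MDA-MB-231 and -0.25 in SUM159. ACTN4, the other alpha-actinin in the list, differed by -1.02 in MDA-MB-231 and 0.20 in SUM159. Of 13 membrane partners, 12 were matched, and 1 was higher and 3 lower of 10 compared in MDA-MB-231 (median log2 fold change -0.48), and 4 and 2 of 12 in SUM159 (median -0.14). Of 16 other integrin subunits, 1 was higher and 3 lower of 6 compared in MDA-MB-231 (median log2 fold change -0.54), and 3 and 5 of 13 in SUM159 (median 0.19). Side by side, ITGA6 had log2 fold changes of -0.69 and 0.33 in MDA-MB-231 and SUM159, and ITGB4 -1.03 and -2.40. Over all genes compared the medians were -0.018 and -0.034. The list counts depend on the scaling. Scaling by total counts was tried on the lists after seeing the data. In MDA-MB-231 6 adaptors were then called lower and 3 higher (median -0.068), and 6 ligands were higher and 15 lower in SUM159 (median -0.86). Other medians turned from negative to positive. Adaptors in SUM159 had 5 higher and 3 lower (median 0.050), and ligands in MDA-MB-231 6 higher and 4 lower (median 0.054). The median of membrane partners in SUM159 became 0.16. Over all genes the medians with that scaling were 0.25 in MDA-MB-231 and 0.27 in SUM159. The shares of all genes called higher and lower with that scaling were 29.1% and 7.57% in MDA-MB-231 and 32.8% and 12.8% in SUM159. Of the other subunits, 6 were then higher and 3 lower in SUM159. The edgeR quasi-likelihood test called 0 genes of the 4 lists.

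**Figure D4:**
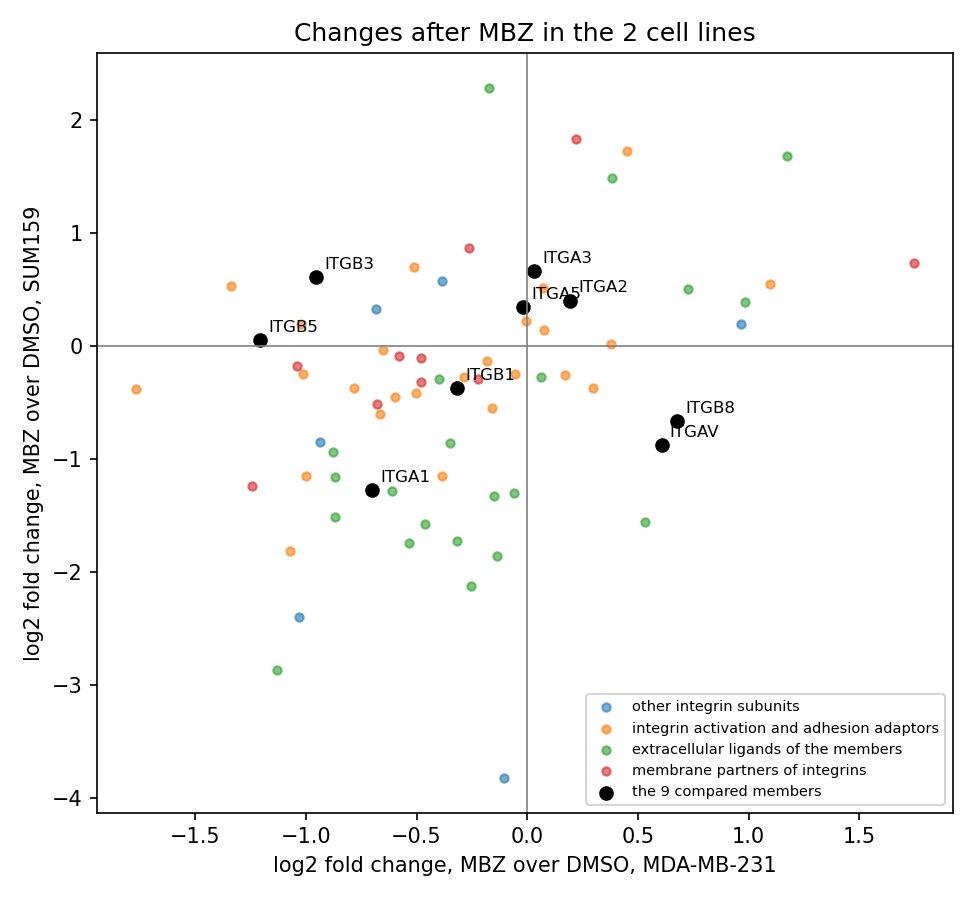
Log2 fold change with MBZ over DMSO in MDA-MB-231 (x axis) against SUM159 (y axis), with 1 point per gene; black points are the 9 compared members and coloured points the 4 lists of related genes. ITGAV and ITGB8 lie at the lower right and ITGB3 at the upper left.

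The genes nearest to a member in pattern were found by Euclidean distance between centred log2 CPM over the 4 libraries, among 11143 genes averaging 100 counts or more. For ITGAV they were EIF2A (distance 0.0526) and BORCS7 (0.119), for ITGB8 CCDC40 (distance 0.119) and PKIB (0.165), and for ITGB3 TIMP1 (distance 0.217) and APCDD1L (0.339). For ITGB5 they were ACTB (distance 0.0192) and RMI2 (0.117), and for ITGB1 ANKFY1 (distance 0.0436) and KCTD6 (0.0524). For ITGA1 they were CAP2 (distance 0.123) and TRIB2 (0.123), for ITGA2 RAP2C (distance 0.0403) and RGMB (0.0646), for ITGA3 FOXRED1 (distance 0.0533) and ABHD11 (0.0800), and for ITGA5 SRPX2 (distance 0.124) and SLC27A5 (0.188). The distance is a description over 4 libraries.

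Markers were read to check the labelled cells. Of the 7 tumour cell markers, KRT8, KRT18, VIM and CD44 were abundant in every library. The 7 summed to 4596 and 2734 CPM in MDA-MB-231 (DMSO, then MBZ) and 5330 and 3697 CPM in SUM159. With MBZ and TMM scaling, VIM was called lower in both lines, and KRT8, KRT18 and KRT19 in MDA-MB-231. EPCAM was called higher in MDA-MB-231, at a log2 value of 0.67 (counting interval 0.35 to 0.995), against the direction of the sum. KRT19 had 12386 and 6608 counts in MDA-MB-231 (DMSO, then MBZ) but 1 and 13 in SUM159. EPCAM had 144 and 190 against 6 and 9, and CDH1 at most 12, with 0 in SUM159. Epithelial markers were thus scarce in SUM159 apart from KRT8 and KRT18. Triple-negative tumours are defined by protein staining for 3 receptors, which RNA counts do not measure. Among the genes of these receptors, PGR had 0 counts in each library and ESR1 at most 2 except for 18 in SUM159 with MBZ. ERBB2 had 1216 to 1996. The 4 fibroblast markers summed to 6.11 and 4.21 CPM in MDA-MB-231 (DMSO, then MBZ) and 217 and 53.5 CPM in SUM159. PDGFRB was the most abundant of them except in SUM159 with MBZ, where DCN was, at 24.6 CPM. DCN had 335 and 508 counts in SUM159, a log2 fold change of 0.28, against the direction of the sum. The 4 leukocyte markers summed to 0.903 and 2.16 CPM in MDA-MB-231 (DMSO, then MBZ) and 13.0 and 3.15 CPM in SUM159, and CD3E had at most 1 count. PTPRC led them except in MDA-MB-231 with DMSO, where LYZ did on 13 counts. The 3 endothelial markers, led by PECAM1, summed to 16.1 and 18.2 CPM in MDA-MB-231 (DMSO, then MBZ) and 40.8 and 41.3 CPM in SUM159, and the 3 platelet markers, led by GP1BA, to 2.75 and 2.21 CPM in MDA-MB-231 (DMSO, then MBZ) and 1.57 and 1.84 CPM in SUM159. The tumour cell and fibroblast sums were lower with MBZ in both lines and the leukocyte sum lower in SUM159 but higher in MDA-MB-231, and their part in the changes of the subunits was not tested. Each library was labelled as 1 cell line, and the marker lists name genes, not separate cell types within a library. Bulk counts do not show how this RNA was spread over the cells.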

How the data were processed

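The deposited table holds raw read counts per Ensembl gene that the authors made, per the submitters' processing notes, with STAR 2.5 on GRCh38 and HTSeq 0.6.1; the annotation release and strand setting are not given in the sources used here. Symbols were matched for 58207 of 58735 identifiers. From the counts, log2 CPM differences were computed in edgeR 4.0.16 (R 4.3.3) with TMM within each pair of libraries and a prior count of 0.125. The test for a shared change used edgeR's quasi-likelihood fit with cell line and treatment, TMM over 4 libraries, and the default expression filter. DESeq2 1.42.0 size factors and Wald test, scaling by total counts, TMM over 4 libraries, RLE, other thresholds, filters, prior counts, gene lengths and a model without cell line were alternatives. Ratios to ITGAV were added after seeing the data. Lengths came from GENCODE on the same build. The share intervals use the delta method. The code was checked on simulated data. Genes named are the members, the 4 lists, markers and the 2 nearest genes in pattern per member. The members and lists were chosen with earlier results of these data known.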

Additional observations from a re-analysis of the deposited data

Results flagged for a closer look

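With no error but that of counting known, 3 members were called in opposite directions in the 2 lines at 1.5-fold, where 6.04% of all genes compared were. With total counts 1 member was (4.83% of genes), with DESeq2 size factors 2 were (6.06%), and at a fold of 2 none was (1.7%). The response in SUM159 minus that in MDA-MB-231, on the log2 scale, was -1.48 for ITGAV, 1.56 for ITGB3 and -1.34 for ITGB8. Each moved one way in the 1 pair of libraries from one line and the other way in the other pair. The differences were not tested. ITGA5 and ITGB5 also had values of opposite sign, but an interval of each included 0.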

How the results depend on the processing

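With 1 library per condition, no spread between cultures is known, and ITGB6 and, in MDA-MB-231, ITGB8 are limited by depth. Signs of the changes of ITGA1, ITGAV, ITGB3 and ITGB8 held under the 4 alternatives of scaling and prior count, but several calls did not. DESeq2 size factors left 1 member higher in MDA-MB-231 (ITGAV fell under 1.5-fold), where 16.7% of all genes were. Scaling by total counts gave 4 higher (ITGA2 and ITGA5 added) and 1 lower in SUM159 (ITGAV and ITGB8 lost), where 32.8% and 12.8% of all genes were. It left 1 member called in opposite directions (4.83% of genes) and 0 lower in both lines (1.61%). A fold of at least 2 left 0 higher and 1 lower in each line, where 9.05% and 5.14% of all genes were in MDA-MB-231 and 12.7% and 10.7% in SUM159, with 0 called in opposite directions (1.7% of genes) and 0 lower in both (1.09%). Taking every gene with a count made ITGB6, on at most 7 counts, 1 member higher in both lines. The share of all genes called so was not computed with that filter, so this count has no background. The shared test sets MBZ against DMSO within each line, and without cell line in the model it called 0 genes, where it called 1 with it. Taking every gene with a count it called 298 of 32295.

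Scaling by total counts gave log2 fold changes in MDA-MB-231 of ITGA1 -0.44, ITGA2 0.46, ITGA3 0.30, ITGA5 0.25, ITGAV 0.87, ITGB1 -0.052 and ITGB5 -0.94, and in SUM159 of ITGA1 -0.98, ITGA2 0.70, ITGA3 0.96, ITGA5 0.64, ITGAV -0.58, ITGB1 -0.077, ITGB3 0.91, ITGB5 0.35 and ITGB8 -0.36. DESeq2 size factors gave ITGA2 0.15, ITGA3 -0.020 and ITGB1 -0.37 in MDA-MB-231. The log2 ratios of the DMSO libraries became ITGA2 -1.18, ITGA3 -1.22, ITGA5 1.501, ITGB1 -0.87 and ITGB5 -0.89 with total counts. These shifts follow from the scaling itself, which moves every gene by the same amount.

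The longest transcript as length changed the shares, 32 of 40 by more than their 95% counting interval. In MDA-MB-231 with DMSO, the shares in percent were ITGA1 1.91, ITGA2 16.1, ITGA3 69.7, ITGA5 9.16 and ITGAV 3.08 of the alpha chains, and ITGB1 61.4, ITGB3 0.854 and ITGB5 37.6 of the beta chains. In MDA-MB-231 with MBZ, the shares in percent were ITGA1 1.12, ITGA2 17.7, ITGA3 68.1, ITGA5 8.65 and ITGAV 4.49 of the alpha chains, and ITGB1 74.4, ITGB3 0.666, ITGB5 24.6 and ITGB8 0.386 of the beta chains. In SUM159 with DMSO, the shares in percent were ITGA2 10.1, ITGA3 42.4, ITGA5 36.8 and ITGAV 9.70 of the alpha chains, and ITGB1 59.0, ITGB3 3.87, ITGB5 35.5 and ITGB8 1.67 of the beta chains. In SUM159 with MBZ, the shares in percent were ITGA2 10, ITGA3 50.6, ITGA5 35.1 and ITGAV 3.98 of the alpha chains, and ITGB1 50.9, ITGB3 6.61 and ITGB5 41.2 of the beta chains. The lengths alone set these shifts.

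Taking ITGAV as reference in place of ITGB1, a choice made after seeing the data, gave log2 ratios in MDA-MB-231 of ITGB3 -1.56, ITGB5 -1.81 and ITGB8 0.069, and in SUM159 of ITGB3 1.48, ITGB5 0.93 and ITGB8 0.21. With ITGB1, the planned reference, the ratios in MDA-MB-231 were ITGB3 -0.64, ITGB5 -0.89 and ITGB8 0.99. In SUM159 the planned ratios were ITGB3 0.98, ITGB5 0.43 and ITGB8 -0.29. In the shared test, no member was called under any alternative.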
